A study of Homo sapiens with 12 samples.

Results

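The HOX cluster genes encode homeodomain transcription factors, and 27 of the 18417 genes tested on these arrays belong to them. Members were chosen by symbol alone: a gene named HOXA, HOXB, HOXC or HOXD plus a number, measured by a probe set that lists exactly 1 gene symbol. RefSeq holds 39 such genes, 11 in HOXA on chromosome 7, 10 in HOXB on chromosome 17, 9 in HOXC on chromosome 12 and 9 in HOXD on chromosome 2. The members are HOXA2, all 10 HOXB genes, 7 HOXC genes (HOXC5 and HOXC8 to HOXC13) and all 9 HOXD genes. Each member had 1 probe set. The other 10 HOXA genes are not analysed here, so nothing is said of HOXA beyond HOXA2, and HOXC4 and HOXC6 share a probe set with several symbols and were left out.

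Total RNA of human pancreatic ductal adenocarcinoma cell lines was measured on 12 Affymetrix arrays, 3 for each of 4 groups. AsPC1-R is a cisplatin-resistant derivative of AsPC1 that was maintained in 1.67 µM cisplatin, and BxPC3-R is a cisplatin-resistant derivative of BxPC3 that was maintained in 0.60 µM. AsPC1 and BxPC3 are the parental lines, grown without the drug. Both derivatives spent their last passage before harvest in medium free of cisplatin, a platinum compound that crosslinks DNA. There is 1 derivative per line, so resistance and the history of that derivative cannot be told apart. The labels do not state that the 3 samples of a group were separate cultures. The p-values below therefore measure the spread between these samples, which may be technical.

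HOX genes lie in order along each cluster, and genes with low numbers are used nearer the head of the embryo and genes with high numbers nearer the tail. Genes with the same number in different clusters are paralogues. HOX proteins bind DNA with cofactors of the PBX and MEIS families. Polycomb proteins keep the clusters silent, and Trithorax and MLL complexes and retinoic acid switch them on. Adult epithelial cells and cell lines often keep a set of active HOX genes that reflects their place of origin.

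Values are log2 expression levels, so a difference of 1 is a 2-fold difference. A gene is said to rise, fall or differ where limma's moderated test gave an adjusted p under 0.05 over all 18417 genes. Array medians lay between 6.48 and 6.65. All 7 epithelial markers, EPCAM and KRT19 among them, stood above the range of olfactory receptor genes, described below, in all 4 groups. The leukocyte list, over 5 genes, differed between the lines: the log2 of its summed level lay between 12.13 and 12.28 in AsPC1-R, 12.22 and 12.30 in AsPC1, 7.51 and 7.67 in BxPC3-R, and 7.71 and 8.65 in BxPC3. The lysozyme gene LYZ, with means of 12.15, 12.21, 4.80 and 5.69 in the same order, carried that difference. CD14 and ITGAM in AsPC1-R and CD14 in BxPC3 also stood above the range, and PTPRC, the defining leukocyte gene, stood within it in all 4 groups. Endothelial markers moved with the BxPC3 comparison: the log2 of their summed level, over 5 genes, lay between 8.09 and 8.18 in BxPC3-R and between 9.87 and 10.13 in BxPC3, where CDH5, TEK and PECAM1 stood above the range. KDR stood within it in all 4 groups. The fibroblast list, over 6 genes, lay between 10.72 and 10.92 in AsPC1-R and between 11.64 and 11.82 in AsPC1, mainly through LUM. It was lower in the other line, between 8.85 and 8.97 in BxPC3-R and between 8.61 and 8.75 in BxPC3. COL1A1 and COL1A2 stood above the range in all 4 groups. The part of these shifts in the HOX results was not tested. BxPC3 replicate 2 stood apart from the other arrays of its group in the intestinal cadherin gene CDH17. That gene read 9.0 there and 4.99 and 4.47 on replicates 1 and 3, against a mean of 13.28 in AsPC1. By limma's array weights it did not stand out, at 0.63 against 0.60 and 3.73 for BxPC3 replicates 1 and 3. AsPC1 replicates 2 and 3 had lower weights, at 0.35 and 0.43. Because of CDH17, counts of HOX genes that use BxPC3 are also given without BxPC3 replicate 2. Any other named result that lost its call without it is marked as such. No gene of the other lists gained a call without it.

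Mature sequences are shown for miR-10a and miR-196a, with the seed, bases 2 to 8, in capitals. By the array's precursor signals, MIR10A differed between the derivatives alone. MIR196A2 differed between the parental lines, a call lost without BxPC3 replicate 2, and MIR196A1 passed no test. MIR10A lies in HOXB, at chr17:48579904-48579926 on the minus strand for the mature sequence, and MIR196A1 and MIR196A2 lie in HOXB and HOXC, at chr17:48632532-48632553 (minus) and chr12:53991762-53991783 (plus). Both miR-196a genes give the same mature sequence, which is known to target HOXB8 transcripts. Sequences and coordinates are RefSeq's, on GRCh38.p14.
hsa-miR-10a-5p: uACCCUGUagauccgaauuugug
hsa-miR-196a-5p: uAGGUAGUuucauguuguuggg

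RefSeq promoter sequences, from 250 bases before to 50 after the start, were found for 11 of the 27 members. HOXC5 and HOXA2 are shown because their changes differed between the derivatives, and because in RefSeq HOXC4, HOXC5 and HOXC6 begin at 1 shared position. Capitals mark matches, on either strand, to CCAAT (the CCAAT box) and to TGATNNAT (a site that PBX and HOX proteins bind together). No capital run holds matches to both motifs. The HOXC5 promoter, chr12:54016638-54016937 (plus), has 2 CCAAT matches, no TGATNNAT match and 15 CG pairs. The HOXA2 promoter, chr7:27102634-27102933 (minus), has 4 CCAAT matches, 1 TGATNNAT match and 11 CG pairs.
HOXC5 promoter: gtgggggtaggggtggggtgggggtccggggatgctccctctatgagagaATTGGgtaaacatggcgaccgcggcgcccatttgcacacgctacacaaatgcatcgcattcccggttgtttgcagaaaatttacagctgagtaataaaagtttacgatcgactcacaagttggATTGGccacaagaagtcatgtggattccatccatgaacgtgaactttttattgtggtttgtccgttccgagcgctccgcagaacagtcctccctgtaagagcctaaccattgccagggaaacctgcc
HOXA2 promoter: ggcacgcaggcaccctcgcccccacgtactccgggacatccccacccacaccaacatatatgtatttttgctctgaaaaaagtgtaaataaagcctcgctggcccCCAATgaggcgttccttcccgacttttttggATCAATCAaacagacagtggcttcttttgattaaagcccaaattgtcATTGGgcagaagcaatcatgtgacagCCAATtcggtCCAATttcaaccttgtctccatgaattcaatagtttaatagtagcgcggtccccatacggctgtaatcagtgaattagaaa

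Across the 11 members with a promoter, CCAAT matched in 9, against 34.6% of all 35116 promoters, and TGATNNAT in 3 (HOXA2, HOXB1 and HOXD11), against 7.40%. The CDX letters TTTATG matched in 1 (HOXD8), against 10.6%, and the retinoic acid receptor half-site AGGTCA in none, against 13.8%. The members' promoters held a median of 23 CG pairs, and all promoters a median of 14. These matches describe letters in a fixed window and were set against no expression value.

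The level of each member was first set against a gene family of which most members are thought to be silent in epithelial cells. The table gives no background, so the 341 olfactory receptor genes served as a stand-in, and a HOX gene was counted where its group mean exceeded their 95th percentile. That limit was 6.17 in AsPC1-R, 6.30 in AsPC1, 6.15 in BxPC3-R and 6.11 in BxPC3. It was exceeded by 17 members in AsPC1-R, 17 in AsPC1, 16 in BxPC3-R and 14 in BxPC3. Over all genes the shares above it were 68.0%, 66.0%, 68.2% and 68.9% in the same order of groups. In these bulk samples fewer cells that use a gene and less RNA per cell cannot be told apart. With the 99th percentile as the limit, the counts were 16, 16, 8 and 9. Some olfactory receptor genes may be in use: between the derivatives 4 of 341 differed by 2-fold or more, against 10.4% of all genes.

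In all 4 groups 14 members stood above the limit: HOXA2, HOXB3 to HOXB7, HOXB9, HOXC8, HOXC10, HOXC11, HOXD1, HOXD4, HOXD9 and HOXD13. HOXB2 and HOXB13 did so in AsPC1-R and AsPC1 only. HOXB8 did so in AsPC1-R, AsPC1 and BxPC3-R, and HOXC13 in BxPC3-R alone, where its mean of 6.15 lay at the limit. The remaining 9 members, HOXB1, HOXC5, HOXC9, HOXC12, HOXD3, HOXD8, HOXD10, HOXD11 and HOXD12, stayed under it in every group, and changes among such low values are uncertain in size. Each probe set has its own sensitivity, so a place above or under the olfactory receptor limit may also reflect the probe set. Apart from that limit and the summed marker lists, levels of different genes are not compared.

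**Figure D1:**
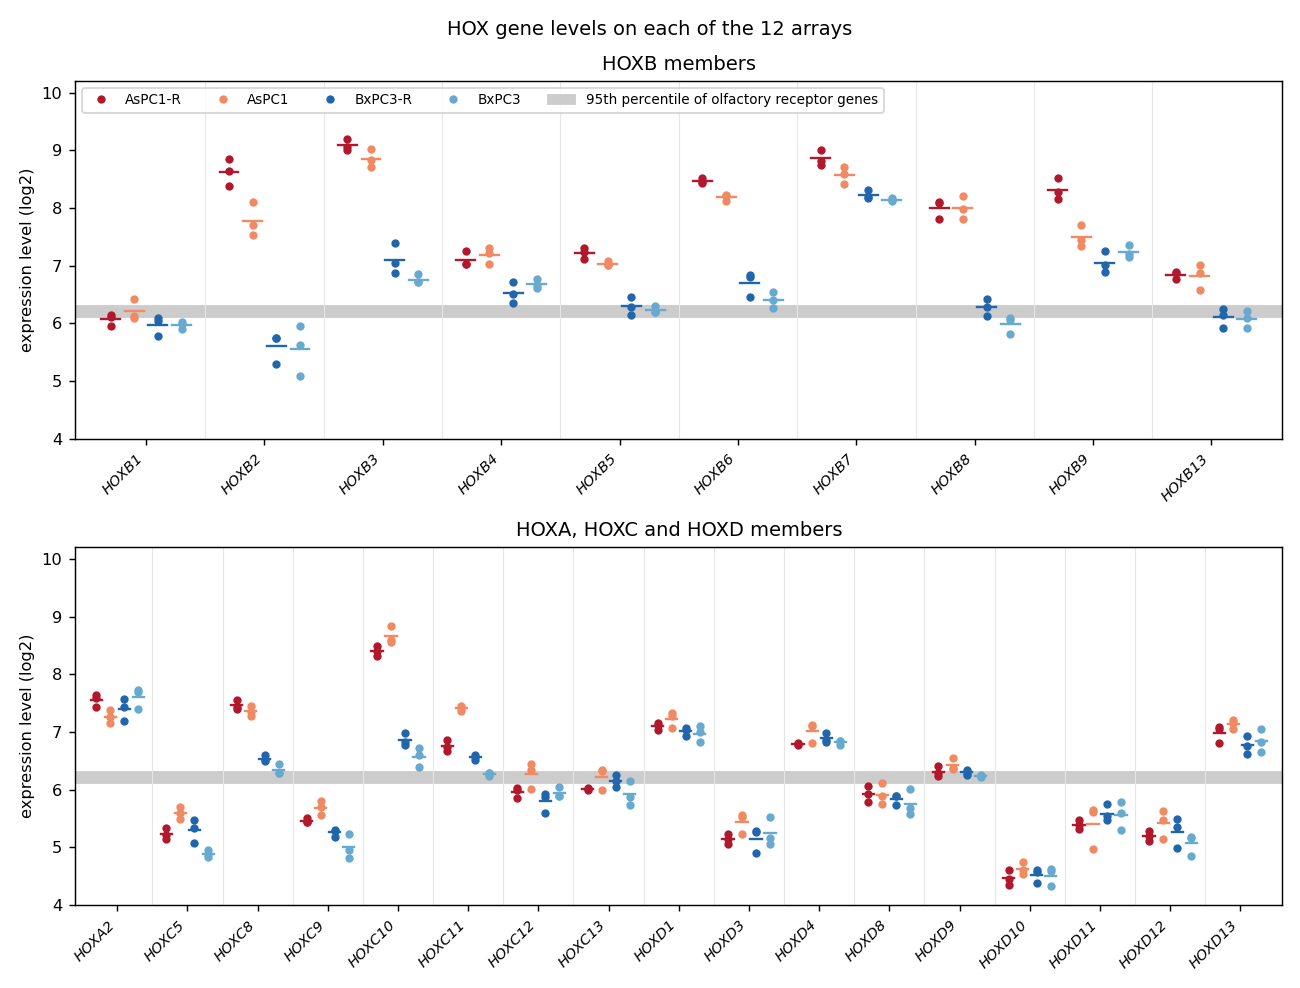
Log2 expression level of each of the 27 HOX genes on each array, with 3 points and a bar at the mean for each of AsPC1-R, AsPC1, BxPC3-R and BxPC3. The grey band spans the 4 groups' 95th percentiles of olfactory receptor genes, 6.11 to 6.30. HOXB2, HOXB3, HOXB6, HOXB8 and HOXC10 show the widest gap between the AsPC1 pair and the BxPC3 pair, while HOXD genes lie nearly level across the groups.

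The parental lines were compared to ask which HOX genes mark one line against the other. AsPC1 had higher levels of 17 of the 27 members than BxPC3 and a lower level of 1, while 50.6% of all tested genes differed, 27.7% higher and 22.9% lower. HOXB and HOXC genes made up 15 of the 17: 8 of 10 HOXB members and 7 of 7 HOXC members were higher. HOXD added HOXD1 and HOXD13, 2 of 9, and HOXA2 was the member that was lower. The median difference was 0.77 in HOXB, 0.71 in HOXC and 0.19 in HOXD, against 0.11 over all genes and 0.14 over the olfactory receptor genes. At 2-fold or more, 7 members were higher and none lower, while 11.1% of all genes differed by that much and 4.05% were higher.

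Among the HOXB genes used in the hindbrain of the embryo, HOXB2 read 7.70, 7.53 and 8.11 in AsPC1, against 5.96, 5.62 and 5.08 in BxPC3. The lowest AsPC1 array thus lay far above the highest BxPC3 array, and the difference was 2.23 (SE 0.21, limma adjusted p = 7.51e-07). Since HOXB2 in BxPC3 lies under the olfactory receptor limit, the size of this difference is uncertain. HOXB3, which patterns the hindbrain and pharyngeal arches, read 8.84, 9.02 and 8.71 in AsPC1, against 6.85, 6.72 and 6.71 in BxPC3. All 3 AsPC1 arrays were higher, by 2.10 on average (SE 0.12, limma adjusted p = 4.6e-09), with both lines above the limit. HOXB1, at the head end of the cluster, was under the limit and did not pass the test, with a difference of 0.24 (SE 0.11, limma adjusted p = 0.0805).

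Of the genes in the middle of HOXB, HOXB6 read 8.21, 8.22 and 8.12 in AsPC1, against 6.41, 6.54 and 6.27 in BxPC3. The groups did not overlap and differed by 1.78 (SE 0.10, limma adjusted p = 4.07e-09). HOXB8, known in mouse for holding myeloid progenitors in an undifferentiated state, read 7.98, 8.21 and 7.81 in AsPC1, against 5.81, 6.09 and 6.05 in BxPC3. Its difference was 2.02 (SE 0.12, limma adjusted p = 7.25e-09), with BxPC3 under the limit. HOXB4, which expands blood stem cells when forced on, differed by 0.51 (SE 0.11), HOXB5 by 0.80 (SE 0.09) and HOXB7 by 0.44 (SE 0.09), all higher in AsPC1 with no overlap of arrays. In RefSeq the HOXB3 span covers HOXB4 and MIR10A, and HOXB5 and HOXB6 share span with HOXB-AS3, so signal within these overlaps may belong to either gene.

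At the tail end of HOXB, HOXB9 read 7.71, 7.35 and 7.45 in AsPC1, against 7.20, 7.37 and 7.15 in BxPC3, so the groups overlapped, and the difference of 0.27 (SE 0.13) did not pass the test (limma adjusted p = 0.0893). HOXB13, a prostate and tail-bud regulator that lies apart from the other genes of its cluster, read 7.02, 6.57 and 6.87 in AsPC1, against 6.22, 5.92 and 6.10 in BxPC3. The groups were separate, with a difference of 0.74 (SE 0.12, limma adjusted p = 0.000181) and BxPC3 under the limit.

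In HOXC, HOXC10, a gene of the lumbar region, read 8.84, 8.57 and 8.60 in AsPC1, against 6.60, 6.73 and 6.39 in BxPC3. The difference of 2.10 (SE 0.11, limma adjusted p = 8.18e-10) is about that of HOXB3. HOXC11, also a gene of the lumbar and sacral region, read 7.37, 7.45 and 7.42 in AsPC1, against 6.23, 6.29 and 6.29 in BxPC3. HOXC8, which acts in the thoracic region, read 7.45, 7.35 and 7.29 in AsPC1, against 6.45, 6.29 and 6.28 in BxPC3. In both genes all arrays of AsPC1 lay above those of BxPC3, and the differences were 1.14 (SE 0.08) for HOXC11 and 1.02 (SE 0.08) for HOXC8.

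The other HOXC members differed by less, and their levels were low. HOXC5 differed by 0.71 (SE 0.10) and HOXC9 by 0.68 (SE 0.10), without overlap of arrays but with both lines under the olfactory receptor limit. HOXC12 differed by 0.33 (SE 0.12) and HOXC13, a hair keratin regulator, by 0.30 (SE 0.12), and their arrays overlapped. HOXA2, which patterns the hindbrain and second pharyngeal arch, read 7.26, 7.37 and 7.15 in AsPC1, against 7.39, 7.73 and 7.69 in BxPC3. It was lower in AsPC1 by a small step, with a difference of -0.34 (SE 0.12, limma adjusted p = 0.026).

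HOXD genes, known for patterning the limb, were nearly level. HOXD13, a digit gene, read 7.06 to 7.21 in AsPC1 and 6.66 to 7.05 in BxPC3, a difference of 0.29 (SE 0.11). HOXD1 read 7.06 to 7.33 in AsPC1 and 6.83 to 7.10 in BxPC3, a difference of 0.25 (SE 0.10). The 7 other HOXD members did not pass the test, with differences between -0.15 for HOXD11 and 0.35 for HOXD12. Still, 8 of the 9 HOXD members stood on the higher side in AsPC1, and 4 had an unadjusted p under 0.05 by limma.

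By position along the clusters, 3 of 6 members of paralogue groups 1 to 3 were higher in AsPC1. In groups 4 to 8 it was 7 of 9 and in groups 9 to 13 it was 7 of 12, against 27.7% of all genes. These groups hold the clusters in unequal parts, so position and cluster cannot be told apart in these counts. Over all members, all arrays of AsPC1 lay above all of BxPC3 for 16 and below for 1, against 30.3% and 24.0% of all genes. Without BxPC3 replicate 2, 14 members were higher and none lower, of 7729 genes called, and 6 of them by 2-fold or more, since HOXC8 then stood at 1.00 and just under that mark. HOXA2, HOXC12, HOXD1 and HOXD13 were the calls lost, and these 4 and HOXC13 were also lost when some other arrays were left out, with adjusted p values up to 0.100 for HOXA2, 0.139 for HOXC12, 0.177 for HOXD1, 0.196 for HOXD13 and 0.184 for HOXC13. Among the 17 members higher in AsPC1, replicate 2 was the highest BxPC3 array for 7, and its median excess over the other BxPC3 arrays was -0.05. These 17 were called with replicate 2 in the fit, so the excess cannot show whether that array hid other differences.

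The derivatives were then set against each other. Their means came from other arrays than the parental means, but the fit shared its estimate of the spread over all 12 arrays. AsPC1-R had higher levels of 12 of the 27 members than BxPC3-R and lower levels of none, while 43.3% of all genes differed, 21.3% higher and 22.0% lower. HOXB held 9 of the 12, of 10 HOXB members, and HOXC the other 3, of 7. None of the 9 HOXD members differed by limma, and none had an unadjusted p under 0.05. The median difference was 1.10 in HOXB, 0.20 in HOXC and -0.01 in HOXD, against 0.03 over all genes. At 2-fold or more, 6 members were higher and none lower, while 10.4% of all genes differed by that much and 5.14% were higher.

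HOXB2 read 8.85, 8.64 and 8.38 in AsPC1-R, against 5.30, 5.75 and 5.76 in BxPC3-R, the widest gap of any member in either comparison at 3.02 (SE 0.21, limma adjusted p = 3.19e-08). HOXB3 read 9.06, 9.0 and 9.20 in AsPC1-R, against 7.39, 7.04 and 6.87 in BxPC3-R, a difference of 1.99 (SE 0.12). HOXB9 read 8.51, 8.16 and 8.28 in AsPC1-R, against 7.26, 7.01 and 6.89 in BxPC3-R, a difference of 1.27 (SE 0.13, limma adjusted p = 1.2e-06). The arrays of the derivatives do not overlap in any of these 3 genes. HOXC10 read 8.48, 8.41 and 8.32 in AsPC1-R, against 6.83, 6.77 and 6.98 in BxPC3-R, a difference of 1.54 (SE 0.11). HOXB6 differed by 1.77 (SE 0.10), HOXB8 by 1.72 (SE 0.12), HOXB5 by 0.93 (SE 0.09) and HOXC8 by 0.92 (SE 0.08), all without overlap. HOXB13, HOXB7 and HOXB4 differed by 0.74, 0.63 and 0.58.

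In both line comparisons the same 11 members were higher on the AsPC1 side, which is 11 of the 17 between the parental lines and 11 of the 12 between the derivatives. Over all genes 2319 were higher on the AsPC1 side in both, which is 45.5% of those higher between the parental lines and 59.2% of those higher between the derivatives. The derivatives descend from the parental lines, so their comparison is not independent of the parental one. The 11 members are HOXB2 to HOXB8, HOXB13, HOXC8, HOXC10 and HOXC11. HOXC5, HOXC9, HOXC12, HOXC13, HOXD1 and HOXD13 passed the test between the parental lines alone, and HOXB9 between the derivatives alone. HOXC11 came close to level between the derivatives: it read 6.67, 6.86 and 6.74 in AsPC1-R, against 6.60, 6.57 and 6.51 in BxPC3-R, and the difference of 0.20 (SE 0.08) barely passed (limma adjusted p = 0.0477). That call was lost under 14 of 20 alternative settings, with an adjusted p of up to 0.180. All arrays of AsPC1-R lay above all of BxPC3-R for 13 members and below for 2, against 28.3% and 27.1% of all genes.

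**Figure D2:**
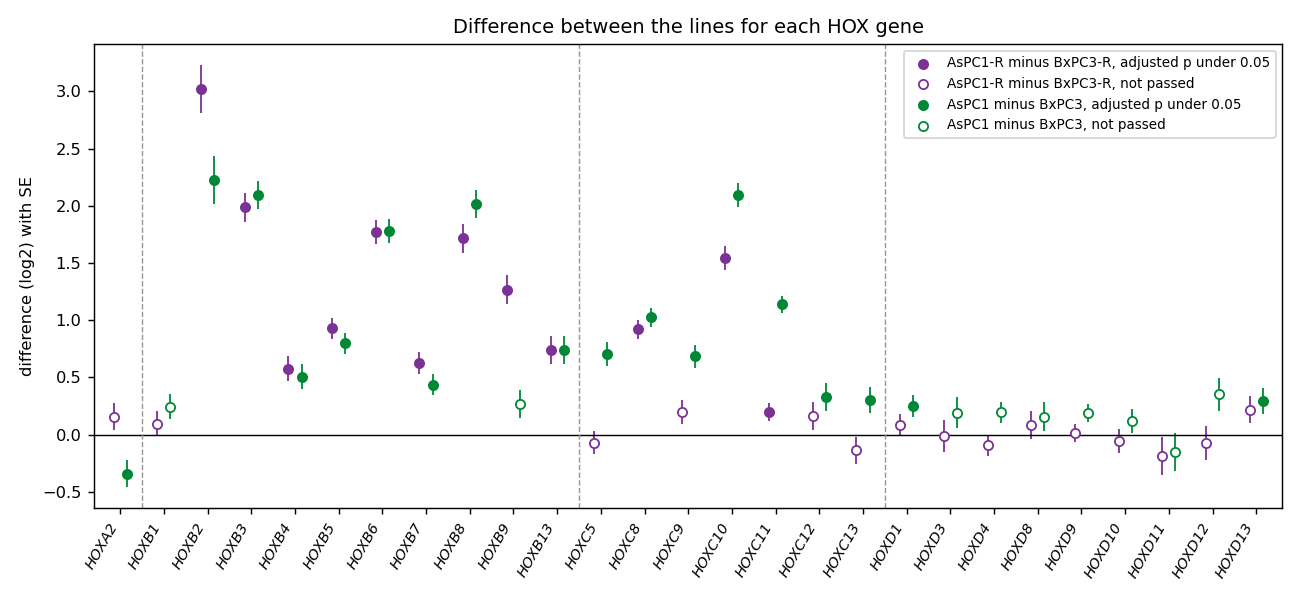
Difference in log2 level with its standard error for each of the 27 HOX genes, AsPC1-R minus BxPC3-R in purple and AsPC1 minus BxPC3 in green, with 3 arrays per group. Filled points passed the test. HOXB2 reaches 3.02 between the derivatives and 2.23 between the parental lines, and the HOXD genes lie between -0.19 and 0.35.

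The first derivative was compared with its parental line to ask which HOX genes changed in AsPC1-R. Of the 27 members 3 rose and 2 fell, which is 18.5% called against 20.3% of all genes, or 11.6% higher and 8.64% lower. The share of HOX genes called is close to that of all genes. All 3 rises were HOXB genes and both falls HOXC genes, and no HOXA or HOXD member passed the test, while 1 and 2 of them had an unadjusted p under 0.05. The median change was 0.21 in HOXB, -0.26 in HOXC and -0.15 in HOXD, against -0.05 over all genes and -0.11 over the olfactory receptor genes. No member changed by 2-fold, as 2.33% of all genes did.

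HOXB9, a thoracic gene in mouse, read 8.51, 8.16 and 8.28 in AsPC1-R, against 7.71, 7.35 and 7.45 in AsPC1. The groups did not overlap, and HOXB9 rose by 0.82 (SE 0.13, limma adjusted p = 0.000329). This rise passed in all 20 alternative settings at the same threshold. HOXB2 read 8.85, 8.64 and 8.38 in AsPC1-R, against 7.70, 7.53 and 8.11 in AsPC1, a rise of 0.84 (SE 0.21, limma adjusted p = 0.0111). Its groups were separate as well, but without AsPC1-R replicate 1 the adjusted p was 0.0542. HOXB7 read 8.82, 9.0 and 8.75 in AsPC1-R, against 8.59, 8.42 and 8.72 in AsPC1, a small rise of 0.28 (SE 0.09, limma adjusted p = 0.0492). Its groups all but touched, and the rise failed under 14 of 20 alternative settings, with an adjusted p of up to 0.195.

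HOXC11 read 6.67, 6.86 and 6.74 in AsPC1-R, against 7.37, 7.45 and 7.42 in AsPC1. The groups were far apart for their spread, and HOXC11 fell with a change of -0.65 (SE 0.08, limma adjusted p = 2.92e-05). HOXC5 read 5.33, 5.22 and 5.14 in AsPC1-R, against 5.50, 5.70 and 5.60 in AsPC1, a change of -0.37 (SE 0.10, limma adjusted p = 0.0214). Its level was under the olfactory receptor limit in both groups, and its adjusted p rose to as much as 0.0827 without AsPC1 replicate 2 or without AsPC1-R replicate 2 or 3. Of the HOXC members that did not pass, HOXC12 stood at -0.31, HOXC10 at -0.26, HOXC9 at -0.23, HOXC13 at -0.21 and HOXC8 at 0.10.

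The other 7 HOXB members did not pass in AsPC1-R. HOXB8 had a change of -0.00 (SE 0.12), HOXB13 of 0.02 (SE 0.12) and HOXB4 of -0.08 (SE 0.11), while HOXB6 stood at 0.29 (SE 0.10, limma adjusted p = 0.073) and HOXB3 at 0.23 (SE 0.12). All arrays of AsPC1-R lay above all of AsPC1 for 6 members and below for 5, against 16.1% and 17.3% of all genes. Without AsPC1 replicate 2, without AsPC1-R replicate 1 or without AsPC1-R replicate 2, 3 members were called in place of 5.

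In BxPC3-R against BxPC3, 2 of the 27 members rose and none fell, which is 7.41% called against 20.8% of all genes, or 9.75% higher and 11.0% lower. At an unadjusted p under 0.05 there were 8 members. Other settings called more members, and some called more of all genes. With dim genes left out, 4 of the 16 members tested were called, beside 3929 of 12328 genes. Quantile normalization once more called 4 members and 4081 of 18417 genes, and arrays centred on their medians 7 members and 3959 genes. Array weights called 10 members, where 9 rose and 1 fell, and 6356 genes. Both rises with the settings used here were HOXC genes. The median change was 0.26 in HOXC, 0.05 in HOXB and 0.04 in HOXD, against 0.02 over all genes.

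HOXC11 read 6.60, 6.57 and 6.51 in BxPC3-R, against 6.23, 6.29 and 6.29 in BxPC3. The groups were separate, and HOXC11 rose by 0.29 (SE 0.08, limma adjusted p = 0.014). HOXC5 read 5.48, 5.33 and 5.08 in BxPC3-R, against 4.96, 4.84 and 4.88 in BxPC3, a rise of 0.41 (SE 0.10, limma adjusted p = 0.0116) that lies wholly under the olfactory receptor limit. Each call depended on single arrays: HOXC5 reached an adjusted p of 0.0651 without BxPC3-R replicate 1, and HOXC11 up to 0.0608 without BxPC3-R replicate 1 or 2. The HOXC genes HOXC10, at 0.29 (SE 0.11), HOXC9, at 0.26 (SE 0.10), HOXC13, at 0.23 (SE 0.12), and HOXC8, at 0.20 (SE 0.08), did not pass.

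HOXB3, at 0.34 (SE 0.12, limma adjusted p = 0.0729), HOXB8, at 0.30 (SE 0.12), and HOXB6, at 0.29 (SE 0.10), did not pass either. All arrays of BxPC3-R lay above all of BxPC3 for 8 members and below for none, against 19.4% and 18.8% of all genes. Without BxPC3 replicate 2, 5 members rose, of 3203 genes called: HOXC5 and HOXC11 as before, with HOXC9 at 0.37, HOXC10 at 0.37 and HOXB6 at 0.36. Leaving out BxPC3-R replicate 1 or BxPC3-R replicate 2 left 1 member called.

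**Figure D3:**
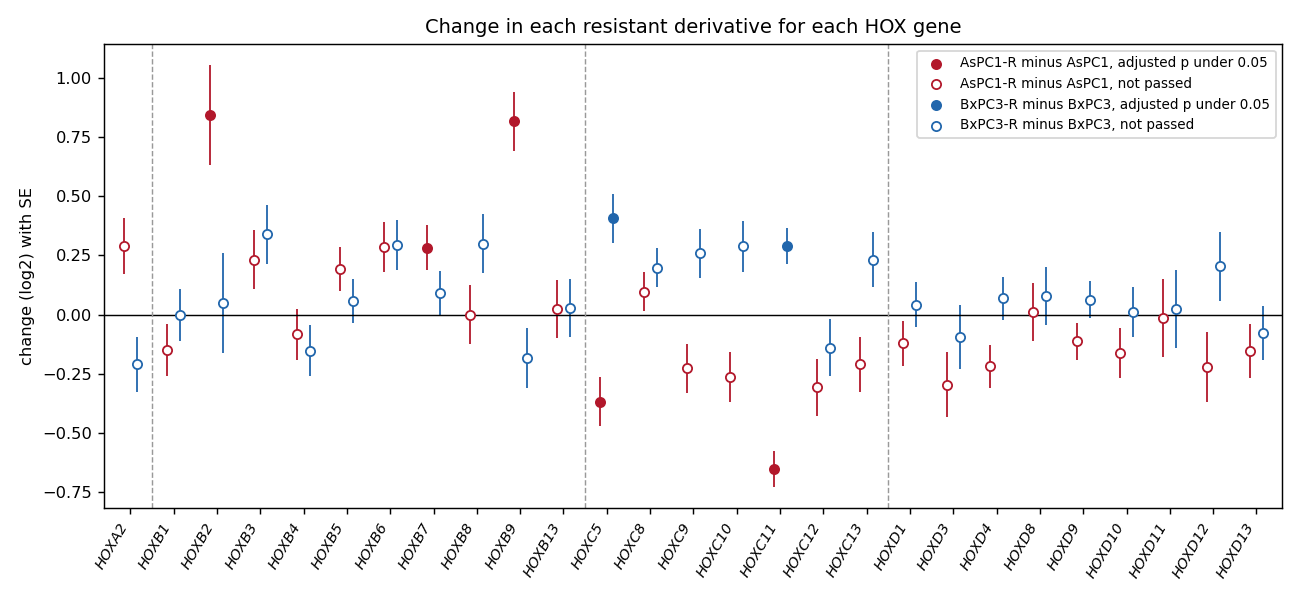
Change in log2 level with its standard error for each of the 27 HOX genes, AsPC1-R minus AsPC1 in red and BxPC3-R minus BxPC3 in blue, with 3 arrays per group. Filled points passed the test. HOXB2 and HOXB9 rise by 0.84 and 0.82 in AsPC1-R, and HOXC11 goes opposite ways, at -0.65 in AsPC1-R and 0.29 in BxPC3-R.

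Whether both derivatives changed alike was tested directly, as the AsPC1-R change minus the BxPC3-R change. The changes differed for 6 of 27 members, 2 higher on the AsPC1-R side and 4 lower, against 14.1% higher and 11.3% lower over all genes, or 25.4% in all. The 4 that were lower were HOXC genes, 4 of 7: HOXC11 with a difference of -0.94 (SE 0.11, limma adjusted p = 1.9e-05), HOXC5 with -0.78 (SE 0.15, limma adjusted p = 0.00131), HOXC10 with -0.55 (SE 0.15, limma adjusted p = 0.0151) and HOXC9 with -0.48 (SE 0.15, limma adjusted p = 0.0262). All 7 HOXC members had a negative difference, from -0.94 to -0.10. Their median was -0.48, against -0.07 over all genes and -0.14 over the olfactory receptor genes. The sign is not particular to HOXC. All 9 HOXD members were negative too, from -0.43 to -0.04 with a median of -0.17, though none of them passed. HOXC5 and HOXC9 stayed under the olfactory receptor limit. HOXC5 begins where HOXC4 and HOXC6 begin and shares span with both, so the gene behind its signal is uncertain.

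HOXB9 differed the other way, by 1.00 (SE 0.18, limma adjusted p = 0.000796): it rose in AsPC1-R and stood at -0.18 (SE 0.13) in BxPC3-R. HOXA2 differed by 0.50 (SE 0.17, limma adjusted p = 0.0398), with 7.43, 7.58 and 7.65 in AsPC1-R against 7.26, 7.37 and 7.15 in AsPC1, and 7.43, 7.19 and 7.56 in BxPC3-R against 7.39, 7.73 and 7.69 in BxPC3. Neither change of HOXA2 passed on its own. For HOXB2, which rose in AsPC1-R by the test, the difference between the derivatives, 0.79 (SE 0.30), did not pass (limma adjusted p = 0.0682). Without BxPC3 replicate 2 the count was also 6: HOXA2 lost its call, and HOXC13 gained one, at -0.56 (limma adjusted p = 0.0177). HOXC9 lost its call under 8 of 18 settings, with an adjusted p of up to 0.0621, and HOXA2 under 10 of 19, with up to 0.107.

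Of 24 noncoding RNAs listed within the clusters, 6 were measured. HOXB-AS3, an antisense RNA that runs past HOXB5 and HOXB6, read 8.48, 8.68 and 8.31 in AsPC1, against 7.39, 7.51 and 7.45 in BxPC3. It was higher in AsPC1 by 1.04 (SE 0.11) and in AsPC1-R than in BxPC3-R by 1.16 (SE 0.11), as the HOXB genes around it were. HOXA-AS2, at the HOXA cluster, read 7.41, 7.30 and 7.25 in BxPC3-R, against 7.78, 7.88 and 7.85 in BxPC3. It fell by 0.52 in BxPC3-R (SE 0.09, limma adjusted p = 0.0009), had a change of -0.03 in AsPC1-R, and these changes differed by 0.49 (SE 0.13, limma adjusted p = 0.0117).

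Of the 4 microRNA genes measured, MIR196A1 stood just above the olfactory receptor limit in all 4 groups, with means of 6.26 in AsPC1-R, 6.48 in AsPC1, 6.26 in BxPC3-R and 6.51 in BxPC3. It passed no test, and its arrays overlapped in every comparison. MIR10B stood under the limit in all 4 groups and passed no test. MIR10A, whose mature form is shown above, read 3.43, 3.11 and 3.17 in AsPC1-R, against 2.70, 2.82 and 2.58 in BxPC3-R, and was higher by 0.53 without overlap of arrays (SE 0.12, limma adjusted p = 0.00273). MIR196A2 read 4.47, 4.37 and 4.43 in AsPC1, against 4.37, 3.82 and 3.73 in BxPC3, and was higher by 0.45 (SE 0.15, limma adjusted p = 0.0244), a call lost without BxPC3 replicate 2. MIR10A and MIR196A2 lie under the olfactory receptor limit in all 4 groups, and the arrays do not measure mature microRNA.

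Genes on either side of the clusters were taken from a list of neighbours, of which 27 were measured. Between AsPC1 and BxPC3, 11 were higher and 3 lower, and between AsPC1-R and BxPC3-R, 15 were higher and 7 lower, against 27.7% and 22.9% of all genes between the parental lines and 21.3% and 22.0% between the derivatives. Beside HOXB, SKAP1, a T-cell adaptor gene 83.5 kb from the cluster, read 7.62, 7.20 and 7.98 in AsPC1, against 5.51, 5.62 and 5.19 in BxPC3. The groups did not overlap, and the difference of 2.16 (SE 0.19) was close to that of HOXB2 and HOXB3. Since SKAP1 in BxPC3 lies under the olfactory receptor limit of 6.11, the size of its difference is uncertain. On the other side TTLL6, a tubulin polyglutamylase gene 33.5 kb away, was higher by 1.70 (SE 0.17), and CALCOCO2, an autophagy receptor gene 102.3 kb away, by 0.97 (SE 0.09).

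Farther out or within the cluster, CBX1, SNX11, PRAC1, ATP5MC1 and UBE2Z did not pass between AsPC1 and BxPC3. HOXB9 did not pass either, while HOXB13, beyond it, did, so the run of higher genes had gaps. Between the derivatives SKAP1 differed by 2.33 (SE 0.19), TTLL6 by 1.52 (SE 0.17) and CALCOCO2 by 2.03 (SE 0.09). There 7 of the 8 measured HOXB neighbours were higher in AsPC1-R, against 21.3% of all genes, and none was lower. The median difference of the 8 was 0.59. In AsPC1-R, UBE2Z rose by 0.76, ATP5MC1 by 0.51, SNX11 by 0.37 and CALCOCO2 by 0.37, while in BxPC3-R CALCOCO2 fell by 0.69.

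**Figure D4:**
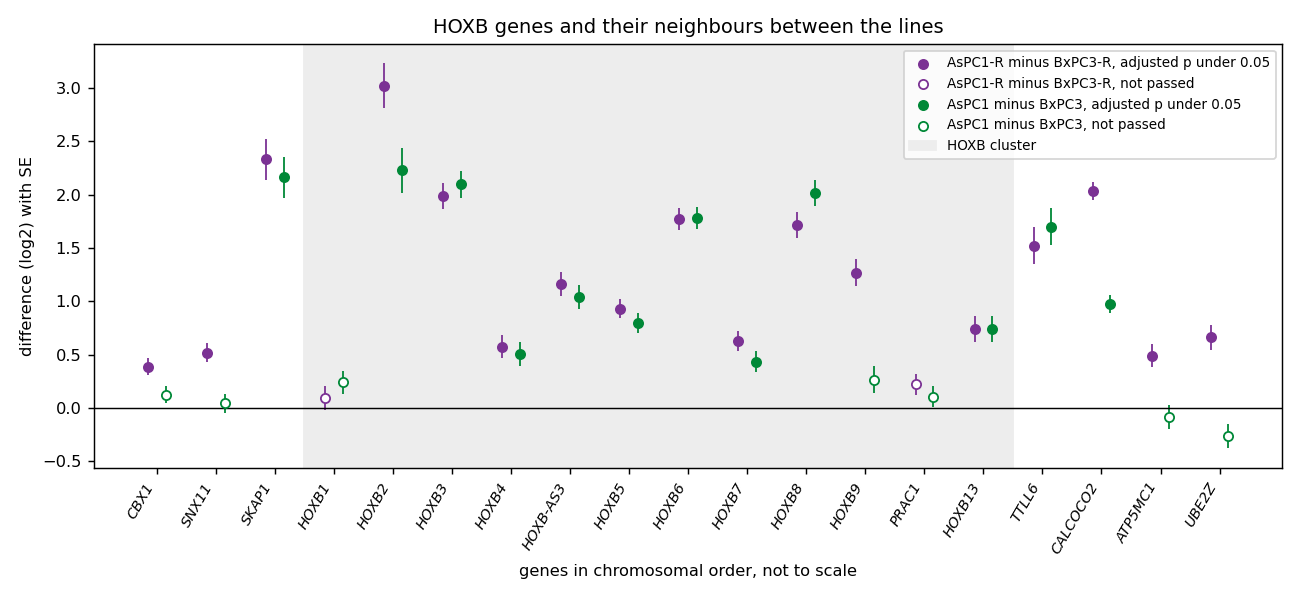
Difference in log2 level with its standard error for HOXB genes, shaded, and their neighbours in chromosomal order, not to scale, AsPC1-R minus BxPC3-R in purple and AsPC1 minus BxPC3 in green, with 3 arrays per group. Filled points passed the test. SKAP1 at 2.33 and 2.16, on the left, and TTLL6 and CALCOCO2, on the right, lie as high as many HOXB genes. SKAP1 lay under the olfactory receptor limit in BxPC3, so the size of its difference is uncertain. CBX1, SNX11, PRAC1, ATP5MC1 and UBE2Z are near 0 between the parental lines, but 7 of the 8 neighbours were higher between the derivatives.

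Beside HOXC, HNRNPA1, an RNA-binding protein gene 224.7 kb away, had a change of -0.46 (SE 0.14) in AsPC1-R and of 0.47 (SE 0.14) in BxPC3-R, where the call was lost without BxPC3 replicate 2, and the changes differed by -0.93 (SE 0.19, limma adjusted p = 0.00251). COPZ1 and SMUG1 rose by 0.47 and 0.36 in BxPC3-R, and CALCOCO1 fell by 0.61 there. Of the 7 HOXC neighbours, 3 had a lower and 1 a higher difference between the derivatives' changes, against 11.3% and 14.1% of all genes. ATP5MC2 was the 1 HOXC neighbour of 7 that differed between the parental lines, at 0.83 (SE 0.11), against 50.6% of all genes. Between the derivatives 2 of the 7 were higher and 4 lower in AsPC1-R, against 21.3% and 22.0% of all genes. The median difference of the 7 was -0.29 there.

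Beside HOXD, EVX2, a homeobox gene 3.5 kb from HOXD, was higher in AsPC1 than in BxPC3 by 0.55 (SE 0.09), and LNPK by 0.42 (SE 0.08), while HOXD genes differed little. In all, 3 of the 6 measured HOXD neighbours were higher and 1 lower there, against 27.7% and 22.9% of all genes. Their differences ran from -0.66 to 0.81, and the lower call was lost without BxPC3 replicate 2. CHN1 rose in both derivatives, by 0.84 (SE 0.20) in AsPC1-R and 0.88 (SE 0.20) in BxPC3-R. Beside HOXA, SNX10 rose by 1.46 (SE 0.12) in AsPC1-R and fell by 0.44 (SE 0.12) in BxPC3-R, a fall that lost its call without BxPC3 replicate 2. JAZF1 rose by 0.60 and fell by 0.49 in the same derivatives. Of the 6 HOXA neighbours, 4 were higher and 2 lower in AsPC1 than in BxPC3, with differences from -2.47 to 1.19. Between the derivatives 3 were higher and 1 lower, against 21.3% and 22.0% of all genes.

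The PBX and MEIS cofactors that bind DNA with HOX proteins were taken from a list of 9, of which 7 were measured. PBX3 read 10.47, 10.47 and 10.16 in AsPC1, against 8.53, 8.82 and 8.53 in BxPC3, a difference of 1.74 (SE 0.10). It fell by 0.35 (SE 0.10) in AsPC1-R and rose by 0.99 (SE 0.10) in BxPC3-R, where it read 9.67, 9.58 and 9.62, and these changes differed by -1.35 (SE 0.14, limma adjusted p = 1.13e-05). MEIS1 rose in AsPC1-R, while its change of -0.23 in BxPC3-R did not pass, and these changes differed by 1.15. It read 7.30, 7.06 and 7.14 in AsPC1-R, against 6.36, 6.14 and 6.24 in AsPC1, a rise of 0.92 (SE 0.09), and 8.37, 8.45 and 8.31 in BxPC3, above every AsPC1 array. MEIS2 rose by 0.54 (SE 0.09) and PBX4 by 0.30 (SE 0.10) in BxPC3-R. In all, 1 of 7 rose and 1 fell in AsPC1-R, against 11.6% and 8.64% of all genes, and 3 rose in BxPC3-R, against 9.75%, of which PBX4 lost its call without BxPC3 replicate 2.

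CDX2, an intestinal regulator that switches on tail-end HOX genes in the embryo, was higher in AsPC1 than in BxPC3 by 0.88 (SE 0.10), as were the pancreatic gene PDX1 by 0.70 (SE 0.17) and GSX2 by 0.41 (SE 0.12), of 6 genes related to the HOX clusters. That is 3 of 6, against 27.7% of all genes, and GSX2 lost its call without BxPC3 replicate 2. None of the 6 passed limma's test in either derivative, and at an unadjusted p under 0.05 there were 3 in AsPC1-R and none in BxPC3-R.

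Of 24 measured Polycomb genes, 5 rose and 3 fell in AsPC1-R, and 4 rose and 2 fell in BxPC3-R. The shares over all genes were 11.6% higher and 8.64% lower in AsPC1-R, and 9.75% higher and 11.0% lower in BxPC3-R. EZH2, the enzyme that methylates histone H3 to silence HOX genes, read 9.93, 10.05 and 9.95 in AsPC1-R, against 10.63, 10.60 and 10.65 in AsPC1, and 11.10, 11.15 and 11.17 in BxPC3-R, against 10.31, 10.44 and 10.47 in BxPC3. It thus fell by 0.65 (SE 0.08) in AsPC1-R and rose by 0.73 (SE 0.08) in BxPC3-R, and the changes differed by -1.38 (SE 0.11, limma adjusted p = 4.64e-07). EZH1, which can stand in for EZH2, did the reverse, with a rise of 0.79 (SE 0.10) and a change of -0.59 (SE 0.10). PHC1 rose in both, by 1.07 and 0.56. Between the parental lines 6 were higher and 7 lower in AsPC1, with PCGF6 at 2.09, PHC1 at -1.47 and JARID2 at -1.31.

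Of 17 measured Trithorax, MLL and elongation genes, 7 were higher and 3 lower in AsPC1 than in BxPC3, with KMT2C at 0.94, DPY30 at 0.81, KDM6A at -1.13 and MLLT3 at -2.16, which is 10 of 17 against 50.6% of all genes. In AsPC1-R AFF4 alone rose, by 0.36, and in BxPC3-R PSIP1 rose by 0.53, DOT1L rose by 0.24 and KDM6A fell by 0.40, so that 1 and 3 of 17 were called, against 20.3% and 20.8% of all genes. Of 8 genes of CTCF and cohesin, which form the loops that divide HOX clusters, 3 fell in AsPC1-R and 4 rose in BxPC3-R, against 8.64% of all genes lower in AsPC1-R and 9.75% higher in BxPC3-R. STAG1 fell by 0.49 in AsPC1-R and rose by 0.58 in BxPC3-R, and CTCF fell by 0.35 and rose by 0.31. For 5 of the 8 the changes differed between the derivatives, all lower on the AsPC1-R side, against 11.3% of all genes.

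Retinoic acid activates head-end HOX genes first. Of 15 measured genes of its pathway, 3 rose in AsPC1-R: the retinal dehydrogenase gene ALDH1A1 by 1.23 (SE 0.30), the retinol transporter gene STRA6 by 0.60 (SE 0.12) and ALDH1A3 by 0.43 (SE 0.07). In BxPC3-R 3 fell, all receptors: RARB by 1.38 (SE 0.13), RXRA by 0.36 (SE 0.11) and RXRB by 0.29 (SE 0.08). Both counts are close to the 20.3% and 20.8% of all genes called, and RXRA and RXRB lost their calls without BxPC3 replicate 2. Between the parental lines ALDH1A1 was higher in AsPC1 by 4.05 (SE 0.30), and RARB, with a difference of -3.36 (SE 0.13), CRABP2, with -2.83 (SE 0.12), and RXRA, with -1.08 (SE 0.11), were lower. Whether any of these genes bears on HOX levels was not tested.

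**Figure D5:**
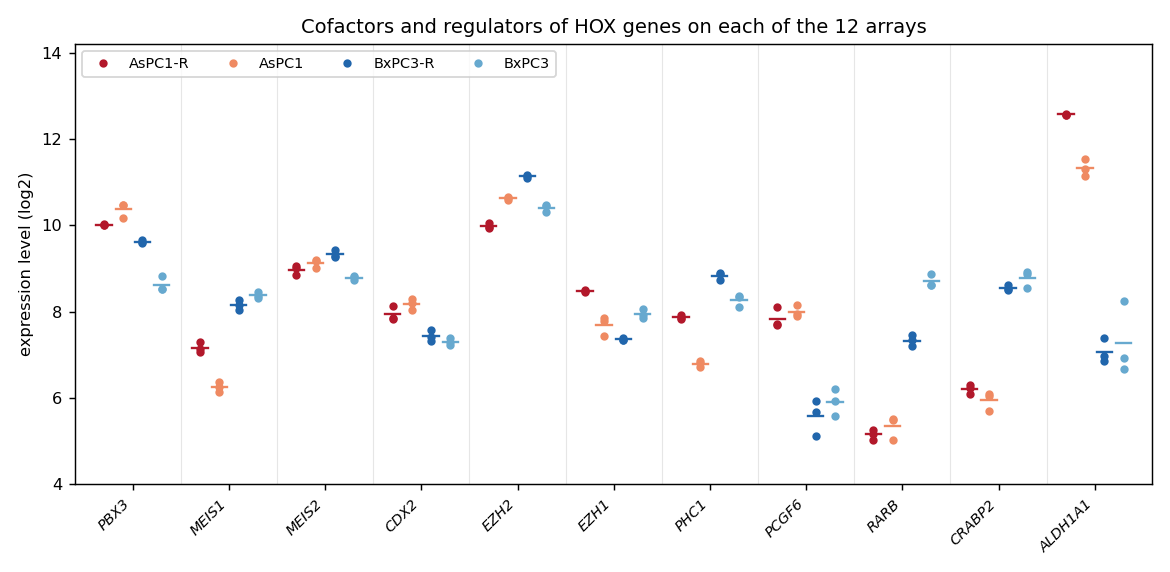
Log2 expression level on each array of 11 cofactor and regulator genes, with 3 points and a bar at the mean for each of AsPC1-R, AsPC1, BxPC3-R and BxPC3. EZH2 lies lower in AsPC1-R than in AsPC1 and higher in BxPC3-R than in BxPC3, and ALDH1A1 lies highest in AsPC1-R.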

How the data were processed

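Total RNA of 12 samples was amplified, labelled with biotin and hybridized to Affymetrix arrays, per the labels' protocols. The authors deposited 1 log2 level for each probe set and array, made with Affymetrix Expression Console and RMA, per the submitters' processing notes. RMA corrects background, quantile-normalizes arrays and summarises probes. No version or genome build is given in the sources used here. The number of arrays limits the precision.

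Of 33297 probe sets, 19460 list 1 gene symbol and were kept. For genes with several probe sets, the one with the highest mean was used, which left 18417 genes. All were fitted with limma 3.58.1 in R 4.3.3 (lmFit and eBayes, 4 group means, 8 residual and 5.47 prior degrees of freedom), two-sided, with Benjamini-Hochberg adjustment. SE is limma's standard error. Every member, every measured neighbour and noncoding RNA of the clusters, and up to 3 called genes per direction and comparison of each other list could be named. Alternatives are in the closing section. The pipeline was tested on simulated data. The members, lists and comparisons were chosen with earlier results of these data known.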

Additional observations from a re-analysis of the deposited data

Results flagged for a closer look

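For 6 HOX genes the change in AsPC1-R differed from the change in BxPC3-R by limma's interaction contrast, at an adjusted p under 0.05 over all genes. The AsPC1-R change minus the BxPC3-R change was 1.00 for HOXB9 and 0.50 for HOXA2. It was -0.94 for HOXC11, -0.78 for HOXC5, -0.55 for HOXC10 and -0.48 for HOXC9. HOXC11 and HOXC5 passed the test in both derivatives, with opposite signs, and HOXB9 passed in AsPC1-R alone. HOXA2, HOXC9 and HOXC10 passed in neither derivative with all arrays. HOXC9 and HOXC10 rose in BxPC3-R when BxPC3 replicate 2, the array with high CDH17, was left out, and the differences without that array were -0.60 for HOXC9 and -0.63 for HOXC10. HOXA2 lost its call without that array, and HOXC13 gained one, at -0.56. The same test called 25.4% of all genes, so 6 of 27 is close to the background share.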

How the results depend on the processing

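Of 43 called changes of HOX genes, 30 passed at the same threshold in every alternative that refitted them, 13 were lost in at least 1, and 0 reversed sign. The lists here give the AsPC1-R change, the BxPC3-R change, the difference of these changes, AsPC1 minus BxPC3, and AsPC1-R minus BxPC3-R, in this order. With all arrays the counts of HOX genes called were 5, 2, 6, 18 and 12, and of all genes 3730, 3826, 4685, 9316 and 7971. Leaving out each array in turn gave 3 to 7, 1 to 5, 4 to 8, 13 to 20 and 11 to 12 HOX genes, and 2869 to 4246, 2970 to 4181, 3961 to 5296, 7729 to 9899 and 7138 to 8322 of all genes. At an adjusted p under 0.01 there were 2, 0 and 3 HOX genes and 2279, 2495 and 2998 of all genes in the first 3 comparisons. A test against a 1.5-fold change left 0, 0, 0, 7 and 8 HOX genes and 398, 396, 933, 2311 and 2278 of all genes. Without those limits limma gave 12, 8 and 9 HOX genes at an unadjusted p under 0.05 in the first 3 comparisons.

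In BxPC3-R minus BxPC3 the count moved with other settings. With dim genes left out, 4 of the 16 HOX genes tested were called, beside 3929 of 12328 genes. Quantile normalization once more called 4 HOX genes and 4081 of all genes. Arrays centred on their medians gave 7 and 3959, and array weights 10 and 6356. Counting only genes above the olfactory receptor limit, an alternative chosen after seeing the data, left 1. Centring moved the median of all genes by 0.05 there. In AsPC1 minus BxPC3, 20 HOX genes were higher after quantile normalization once more, 21 with arrays centred and 23 with array weights. Of all genes, 5741, 5833 and 5920 were higher in the same order. With the main settings 17 HOX genes and 5098 of all genes were higher. With the 99th percentile as the limit, 8 HOX genes in BxPC3-R and 9 in BxPC3 stood above the olfactory receptor genes. The cause of these shifts was not tested.

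Replicate numbers did not pair the samples: deviations of same-numbered arrays correlated between -0.24 and 0.17. With a replicate block the HOX counts were 4, 2, 7, 17 and 11, and of all genes 3553, 3661, 4525, 9184 and 7855.

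The arrays show a HOX gene only relative to probes of low signal, since background was not measured. HOX genes under the olfactory receptor limit, HOXC5 and HOXC9 among them, have differences whose size is uncertain, and so has HOXB2 against either BxPC3 group. With 3 arrays per group and 1 derivative per line, a change in a derivative cannot be told apart from the history of that derivative.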
